A study of Sus scrofa with 60 samples.

Results

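Aquaporins are membrane channels that let water through, and some of them, the aquaglyceroporins, also let glycerol through. In the liver AQP9 is the main entry for glycerol in the hepatocyte membrane, AQP3 and AQP7 are aquaglyceroporins better known from kidney, skin, gut, and fat, and glycerol kinase (GK) turns glycerol into glycerol 3-phosphate, which keeps it in the cell for glucose or lipid synthesis. AQP8 and AQP1 are water channels described in hepatocytes and in bile duct and endothelial cells, where they serve bile formation and fluid exchange, and AQP11 is an intracellular aquaporin. The genes described here are these 7 (AQP1, AQP3, AQP7, AQP8, AQP9, AQP11, and GK), taken by symbol from the 30335 named features of a table of liver read counts, and all 7 were among the 16210 genes that passed the filter on low counts. They were put together with measured values in view, since AQP3 was lower in MLE-BDL than in SLE-BDL livers. Values of that comparison, and every AQP3 value that includes SLE-BDL or MLE-BDL pigs, are therefore descriptions without a test.

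The 60 libraries were made from livers of neonatal pigs of mixed Landrace and Hampshire sows, delivered by cesarean 1 day before term, operated at birth, and studied for 14 days. Ligation of the cystic and common bile ducts (BDL) or a sham operation was combined with enteral milk replacer formula (ENT), or with parenteral nutrition (PN) given through a jugular catheter with a soy lipid emulsion (SLE, Intralipid) or a mixed lipid emulsion (MLE, SMOFlipid). The groups, counted in libraries, were ENT-sham (n = 12), ENT-BDL (n = 10), SLE-sham (n = 10), SLE-BDL (n = 11), MLE-sham (n = 9), and MLE-BDL (n = 8). All pigs, the ENT pigs included, had PN in the first 24 hours, and ENT pigs reached full feeds on day 7, so no group was free of PN. The ligation is complete and surgical, and each library is bulk liver, in which fewer cells of a type and less RNA per cell cannot be told apart.

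A library held 14469788 to 21374161 counted reads (median 17254606), and levels are given as CPM, the counts scaled to a common library total with TMM factors. Hepatocyte markers were high in every library, with ALB at 20390 CPM or more. Pig labels also carry an identifier number, which takes 8 values and is not explained. After group means were subtracted, pigs of different groups with the same number correlated at 0.133 on average, against -0.0178 for other pairs. MLE pigs carry 4 of the numbers, and 1 of the other numbers is that of 5 of the 11 SLE-BDL pigs. ENT-sham replicate 2 and ENT-BDL replicate 1 matched each other more closely than any other pair of libraries (chi-square per degree of freedom 1.93, against 16.3 for the next pair). Whether one of them is mislabelled or a repeat cannot be told from the labels. With both left out, 0 of the 7 genes passed between ENT-BDL and ENT-sham, as with both kept. Without ENT-sham replicate 2 alone, AQP1 passed there (0.67, adjusted p = 0.0348). That library was the lowest of ENT-sham for AQP9, AQP11, and GK. Its sum of 8 cholangiocyte markers, 422 CPM, was the highest of ENT-sham, and ENT-BDL livers had 250 to 425 CPM. SLE-sham replicates 9 and 10 carry 1 pig identifier and may be 1 pig, in which case SLE-sham holds 9 pigs and not the 10 counted in every fit. Without either of them the calls of GK and AQP11 in SLE-sham against ENT-sham held, and AQP9 passed without replicate 9 (-0.34, adjusted p = 0.0449).

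The genes lie apart on the Sscrofa11.1 assembly, except for 1 neighbouring pair. AQP3 (chromosome 10, 33045374 to 33050285) and AQP7 (chromosome 10, 33098746 to 33130245) lie on the same strand, 48.5 kb apart, with no annotated gene between them. AQP9 is on chromosome 1 (113798380 to 113848452), AQP8 on chromosome 3 (21493564 to 21503778), AQP11 on chromosome 9 (12065550 to 12076339), AQP1 on chromosome 18 (42063482 to 42076741), and GK on chromosome X (26470422 to 26558892). The table also holds an annotated glycerol kinase pseudogene, LOC100523928, with 0 to 21 counts per library, against 333 to 3806 for GK.

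Divided by gene length, AQP9 was by far the most abundant of the 7, at a mean of 182 CPM per kb over the 60 libraries. AQP11 followed with 11.2, GK with 6.97, AQP1 with 3.69, AQP3 with 2.04, AQP8 with 0.783, and AQP7 with 0.423 CPM per kb. The 3 rarest rest on few reads, since AQP3 had a median of 14 counts per library, AQP7 of 20, and AQP8 of 9. For AQP9 the highest library was 3.04-fold above the lowest, and for AQP11 3.09-fold. For AQP3 the highest library was 186-fold above the lowest.

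**Figure D1:**
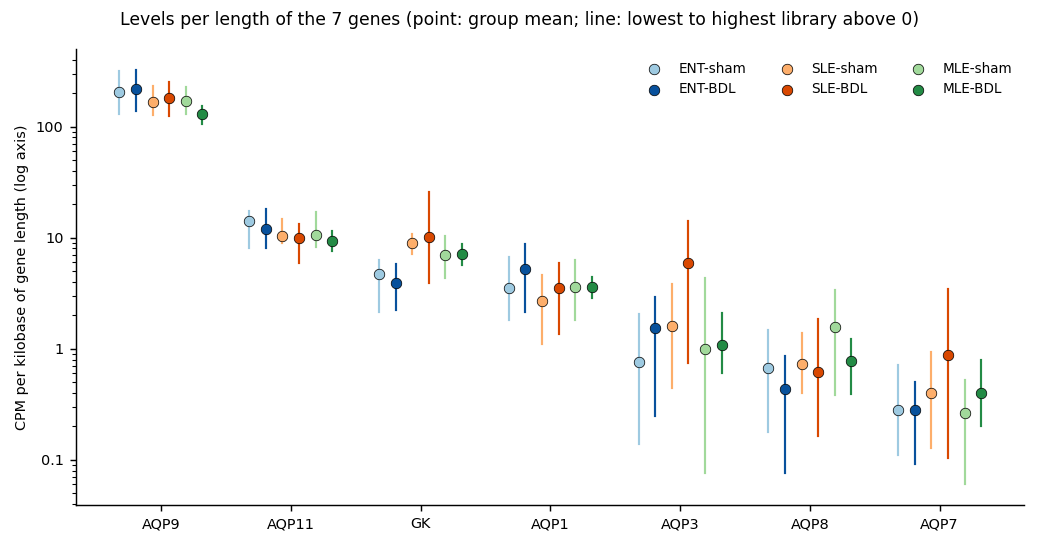
Mean level per length (CPM per kilobase of gene length, log axis) of the 7 genes in the 6 groups, with lines from the lowest to the highest library above 0. AQP9 stands above the other genes in every group, and AQP3 has its highest group mean, 5.89 CPM per kb, in SLE-BDL.

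AQP3, the aquaglyceroporin whose values led to this selection, was low in most livers, with a median of 14 counts per library, and high in a subset of the SLE-BDL livers. The 11 SLE-BDL pigs had 4.77, 5.54, 3.32, 10.4, 12.5, 0.665, 0.801, 3.62, 12.6, 0.913, and 2.6 CPM (replicates 1 to 11). The 8 MLE-BDL pigs had 0.72, 0.926, 1.06, 0.679, 0.701, 0.535, 1.17, and 1.87 CPM. The groups overlapped, with 3 SLE-BDL pigs inside the MLE-BDL range, but all 8 MLE-BDL values lay below the SLE-BDL median of 3.62 CPM.

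The means were 5.25 ± 4.55 CPM (SD, n = 11) in SLE-BDL and 0.958 ± 0.425 CPM (n = 8) in MLE-BDL, a log2 fold change of -2.44 (SE 0.57). The log2 ratio of the medians was -2.14. SLE-BDL was also above SLE-sham (1.42 ± 1.23 CPM, log2 fold change 1.87, SE 0.51) and above ENT-BDL (1.37 ± 0.90 CPM, log2 fold change 1.93, SE 0.51). MLE-BDL against MLE-sham (0.888 ± 1.17 CPM) had a log2 fold change of 0.10 (SE 0.59), which was 0.86 without MLE-sham replicate 1 (3.89 CPM) and 0.55 with the identifier number as a block. These differences involve the pigs that chose the gene and carry no test.

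The identifier numbers moved with AQP3. SLE-BDL replicates 1 to 5, which share a number that no MLE pig has, had 3.32 to 12.5 CPM, whereas replicates 6 and 7, which share another, had 0.665 and 0.801 CPM. Only 2 numbers hold both SLE-BDL and MLE-BDL pigs. Under the first, SLE-BDL replicate 9 had 12.6 CPM and the MLE-BDL pigs 0.72 and 0.926 CPM. Under the other, SLE-BDL replicates 10 and 11 had 0.913 and 2.6 CPM, on both sides of the MLE-BDL pig at 1.87 CPM. When the identifier number entered the fit as a block, MLE-BDL minus SLE-BDL was -1.39 on the log2 scale (SE 0.52), and without SLE-BDL replicate 9 as well, an alternative chosen after the data were seen, it was -1.0 (SE 0.55). The rise from SLE-sham to SLE-BDL was 0.82 (SE 0.43) with the block and 0.58 (SE 0.43) without that pig as well. Against ENT-BDL the SLE-BDL value was 1.98 (SE 0.40) with the block. MLE-BDL minus ENT-BDL was -0.51 (SE 0.57) without the block and 0.58 (SE 0.51) with it.

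**Figure D2:**
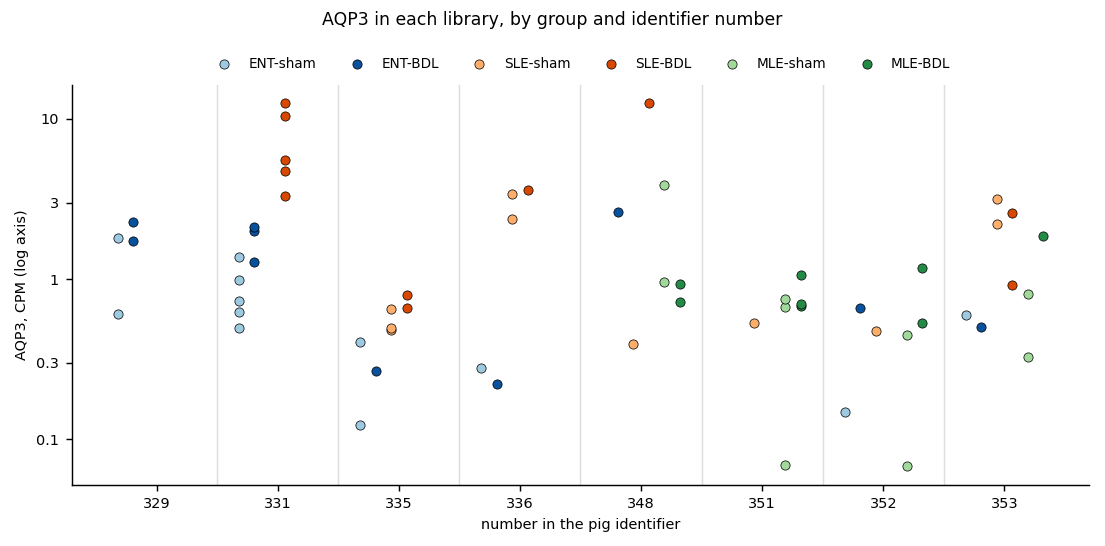
AQP3 level (CPM, log axis) of each of the 60 libraries, by the number in the pig identifier, coloured by group. SLE-BDL replicates 1 to 5 share a number and sit between 3.32 and 12.5 CPM with no MLE pig beside them, and replicates 6 and 7 lie at 0.665 and 0.801 CPM.

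Bile duct markers overlapped between SLE-BDL and MLE-BDL livers, and their part in the AQP3 values was not tested. The summed level of 8 cholangiocyte markers ranged from 284 to 465 CPM in SLE-BDL and from 273 to 477 CPM in MLE-BDL. In the groups not used to choose the gene, AQP3 did not pass the test. ENT-BDL pigs had 0.221 to 2.62 CPM (median 1.5) and ENT-sham pigs 0.123 to 1.82 CPM (median 0.603), with 7 of 10 ENT-BDL values above the sham median. The log2 fold change was 0.98 (95% interval -0.05 to 2.02, adjusted p = 0.193). That fit took its estimate of the spread from all 60 libraries, and on only the groups compared the value was 0.98 (adjusted p = 0.133). SLE-sham pigs fell into a low and a high set on this gene, 0.393 to 0.652 CPM in 6 pigs and 2.21 to 3.39 CPM in 4, and the 4 high pigs carried only 2 of the identifier numbers. They include replicates 9 and 10, the libraries with 1 pig identifier. SLE-sham against ENT-sham gave a log2 fold change of 1.04 (adjusted p = 0.133), and 1.03 on only the groups compared (adjusted p = 0.0965). With the identifier number as a block the value was 2.05 (SE 0.47). It is a description, since the fold change itself there draws on the pigs that led to the selection.

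AQP9, the hepatocyte glycerol channel, was lowest in MLE-BDL livers. MLE-BDL pigs had 109, 128, 121, 112, 96.3, 131, 114, and 139 CPM, and ENT-BDL pigs 125 to 293 CPM (median 183). All 8 MLE-BDL values were below the ENT-BDL median and 5 were below every ENT-BDL pig. MLE-BDL minus ENT-BDL was -0.74 on the log2 scale (SE 0.14, adjusted p = 8.78e-05), in a comparison with 8.53% of all genes called higher and 8.27% lower, and it held with the identifier number as a block (-0.70, adjusted p = 0.00059). The sum of 8 hepatocyte markers was lower in the same direction, at 80530 ± 7569 CPM in MLE-BDL and 93060 ± 16780 CPM in ENT-BDL, though 1 of the 9 features tested for that list passed (TTR). The part of hepatocyte content in the AQP9 difference was not tested.

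The other AQP9 differences that were tested did not pass. MLE-sham pigs had 119 to 204 CPM (median 151), and all 8 MLE-BDL values were below that median, with a log2 fold change of -0.38 (SE 0.14, adjusted p = 0.0644). Hepatocyte markers fell in that comparison, 7 of 9 features with a list median of -0.71, and their part in it was not tested. SLE-sham pigs had 116 to 210 CPM (median 143) against 117 to 290 CPM (median 182) in ENT-sham, a log2 fold change of -0.32 (SE 0.13, adjusted p = 0.0503). Each of these 2 differences passed under 7 of the 9 alternative settings, 1 of which was chosen after the data were seen. SLE-BDL against ENT-BDL gave -0.28 (adjusted p = 0.107), which passed with the identifier number as a block (-0.39, adjusted p = 0.01) and without the closely matching ENT libraries (-0.34, adjusted p = 0.0384). MLE-sham against ENT-sham gave -0.28 (adjusted p = 0.118), which passed without the closely matching ENT libraries (-0.33, adjusted p = 0.0408). Between SLE-BDL (163 ± 35.2 CPM) and SLE-sham (150 ± 31.3 CPM) the log2 fold change was 0.12 (adjusted p = 0.663). Between ENT-BDL (199 ± 52.1 CPM) and ENT-sham (187 ± 40.6 CPM) it was 0.09 (adjusted p = 0.679).

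GK, which traps glycerol by phosphorylation, showed the clearest difference by diet and was higher in PN than in ENT livers. SLE-sham pigs had 64.3 to 98.2 CPM (median 84) and ENT-sham pigs 19.5 to 56.9 CPM (median 46.1), so the groups did not overlap. SLE-sham was higher by 0.94 on the log2 scale (SE 0.20, edgeR adjusted p = 0.000184), in a comparison in which 13.9% of all genes tested were called higher and 13.6% lower. MLE-sham pigs had 39.2 to 93.2 CPM (median 63.2), with 7 of 9 above every ENT-sham pig and a log2 fold change of 0.57 (SE 0.20, adjusted p = 0.0344), where 10.7% of genes were called higher and 10.4% lower.

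The MLE-sham call for GK was not stable. It was lost with the identifier number as a block (0.38, adjusted p = 0.29). Leaving out ENT-sham replicate 1 (0.54), 2 (0.50), 9 (0.55), or 11 (0.54), or MLE-sham replicate 2 (0.53), 8 (0.49), or 9 (0.55), also moved the adjusted p above the threshold, to between 0.0522 and 0.089. The SLE-sham call was kept in each of these fits. MLE-sham against SLE-sham did not pass (log2 fold change -0.37, 95% interval -0.79 to 0.06, adjusted p = 0.538).

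The same order of GK levels held after ligation. ENT-BDL pigs had 20.2 to 52.8 CPM (median 37.8) and SLE-BDL pigs 35.3 to 232 CPM (median 76.3), with 9 of 11 SLE-BDL values above every ENT-BDL value. SLE-BDL was higher by 1.37 on the log2 scale (SE 0.21, adjusted p = 1.77e-06), in a comparison with 10.4% of genes called higher and 9.17% lower. SLE-BDL replicate 9 stood apart at 232 CPM, and without it the SLE-BDL mean fell from 92.3 ± 55.5 to 78.3 ± 32.2 CPM. MLE-BDL pigs had 51 to 79 CPM (median 63.7), with 6 of 8 above every ENT-BDL pig and a log2 fold change of 0.86 (SE 0.22, adjusted p = 0.00349). With the identifier number as a block that value was 0.69 (adjusted p = 0.056), and without SLE-BDL replicate 9 as well 0.85 (adjusted p = 0.00597). Against MLE-sham, MLE-BDL was nearly level in GK (log2 fold change 0.04, 95% interval -0.41 to 0.49).

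AQP7, the aquaglyceroporin by which fat cells release glycerol, was rare in liver and highest in SLE-BDL. SLE-BDL pigs had 0.57, 0.349, 0.761, 1.66, 6.11, 1.74, 3.54, 1.27, 11.7, 3.59, and 1.21 CPM (replicates 1 to 11), and ENT-BDL pigs 0.308 to 1.70 CPM (median 0.934). In SLE-BDL 5 of 11 values were above every ENT-BDL pig, and replicate 9 was again the highest. SLE-BDL minus ENT-BDL was 1.62 on the log2 scale (SE 0.47, adjusted p = 0.00955), and without SLE-BDL replicate 9 it was 1.12 (adjusted p = 0.0712). Of 4 adipocyte markers tested in this comparison 1 rose, FABP4. LEP had no count in any library and ADIPOQ stayed at or below 0.251 CPM, while the sum of the 6 markers was 6.95 to 26.4 CPM in SLE-BDL and 6.16 to 8.99 CPM in ENT-BDL, with replicate 9 the highest. The part of fat cells in the AQP7 values was not tested. In the other groups AQP7 means lay between 0.881 and 1.35 CPM, and in MLE-BDL replicate 4 it had 0 counts, which allows up to 0.157 CPM by counting error.

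In the SLE-BDL livers AQP7 and GK rose and fell together from pig to pig. Replicates 1 to 5, which share an identifier number, had AQP7 at 0.349, 0.57, 0.761, 1.66, and 6.11 CPM, when sorted by AQP7, and GK in that order at 35.3, 40.6, 57.5, 70.5, and 141 CPM. Over the 11 SLE-BDL pigs log2 CPM of the genes correlated with Pearson r = 0.985 and Spearman rho = 0.964, and r was 0.977 without replicate 9 and 0.968 without the 2 pigs farthest from the median of AQP7. Permutation p for r was 1e-05 (adjusted over 3 sets of libraries 1.5e-05), the smallest the 100000 permutations can give, and 2e-05 for rho (adjusted 6e-05). In the 49 libraries of the other groups, with group means subtracted, r was 0.228 (permutation p = 0.0957) and rho 0.265 (permutation p = 0.0712). This pair of sets was chosen after the values were seen, and the difference between the correlations was not tested.

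**Figure D3:**
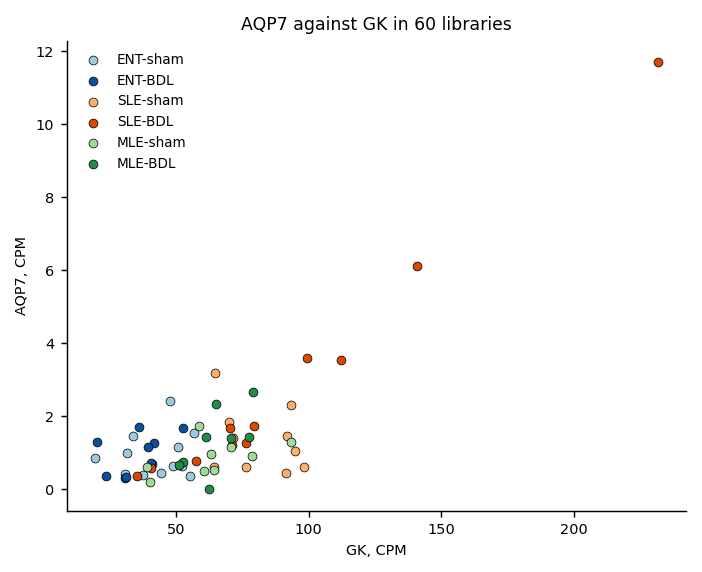
AQP7 against GK (both in CPM) in the 60 libraries, coloured by group. The SLE-BDL pigs form a line up to 11.7 CPM of AQP7 and 232 CPM of GK (replicate 9), and the other groups lie in a cloud with AQP7 at or below 3.17 CPM.

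Among all 21 pairs of the 7 genes, with group means subtracted, AQP7 with GK was the closest over the 60 libraries (r = 0.534, permutation p adjusted over the pairs = 0.00084; rho = 0.463, adjusted p = 0.00945; r = 0.487 with the identifier number removed as well, and 0.505 without the 2 pigs farthest from the median of AQP7). AQP1 with AQP8 followed (r = 0.414, adjusted permutation p = 0.0303; rho = 0.423, adjusted p = 0.0247; r = 0.392 with the number removed and 0.444 without the 2 farthest pigs). AQP3 and AQP7, the neighbours on chromosome 10, had r = -0.04 and rho = -0.11, and AQP1 with AQP3 had r = 0.358, or 0.089 with the identifier number removed. Both are descriptions, since they include the AQP3 values that led to the selection. AQP9 with AQP11 and AQP9 with GK passed on r (0.375 and 0.366) but not on rho.

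AQP8, the canalicular water channel of hepatocytes, had a median of 9 counts per library and was highest in MLE-sham livers. MLE-sham pigs had 1.14, 0.321, 2.81, 1.11, 1.06, 1.62, 1.76, 0.717, and 1.16 CPM, and ENT-sham pigs 0.149 to 1.23 CPM (median 0.340). Of the MLE-sham values 8 of 9 were above the ENT-sham median and 3 were above every ENT-sham pig. The log2 fold change was 1.19 (SE 0.36, adjusted p = 0.0136), and without MLE-sham replicate 3 it was 0.96 (adjusted p = 0.0581). With the identifier number as a block it was 0.95 (adjusted p = 0.172). In MLE-BDL pigs AQP8 was 0.324 to 1.01 CPM, all below the MLE-sham median of 1.14, with a log2 fold change of -1.0 (SE 0.40) that did not pass (adjusted p = 0.0881). Without MLE-sham replicate 2 it was -1.13 (adjusted p = 0.0461). It passed on only the groups compared (-1.0, adjusted p = 0.0334) and with the replicate block (-0.93, adjusted p = 0.0486), and in no other setting that tested it. Hepatocyte markers fell in that comparison, 7 of 9 features with a list median of -0.71, and their part in the AQP8 difference was not tested.

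AQP1, the water channel of endothelium, bile duct cells, and red cells, passed in no comparison. ENT-BDL pigs had 6.77 to 28.3 CPM (median 17) and ENT-sham pigs 5.80 to 21.3 CPM (median 8.98), and 8 of 10 ENT-BDL values were above the sham median. The log2 fold change was 0.55 (95% interval 0.07 to 1.03, adjusted p = 0.103), and it passed without ENT-sham replicate 2 (0.67, adjusted p = 0.0348) or replicate 5 (0.68, adjusted p = 0.043). Cholangiocyte markers moved in the same direction, since 5 of 8 rose from ENT-sham to ENT-BDL and none fell, and their sum went from 172 ± 85.9 to 328 ± 60 CPM. The highest ENT-sham sum, 422 CPM, was that of replicate 2, one of the closely matching libraries, and without it the ENT-sham sum was 149 ± 35.9 CPM. Without both matching libraries AQP1 had a log2 fold change of 0.61 (adjusted p = 0.0675). Of 8 endothelial markers 2 fell, CLEC4G and LYVE1. The sum of 9 erythroid markers was 484 to 2479 CPM in ENT-sham and 346 to 3921 CPM in ENT-BDL. SLE-BDL (11.4 ± 4.96 CPM) and MLE-BDL (11.4 ± 1.96 CPM) were below ENT-BDL (16.5 ± 6.64 CPM), with log2 fold changes of -0.54 and -0.53 that did not pass (adjusted p = 0.114 and 0.175). Of 9 erythroid markers 5 were lower in MLE-BDL (8.27% of all genes lower) and 1, HBB, in SLE-BDL (9.17% of all genes lower). Their part in the AQP1 values was not tested.

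AQP11, the intracellular aquaporin, was lower in both PN sham groups than in ENT-sham. ENT-sham pigs had 6.81 to 14.9 CPM (median 12.4), SLE-sham pigs 7.68 to 12.6 CPM (median 8.73), and MLE-sham pigs 7.08 to 14.5 CPM (median 8.56). The ranges overlapped, with 9 of 10 SLE-sham and 8 of 9 MLE-sham values below the ENT-sham median. The log2 fold changes were -0.44 (SE 0.13, adjusted p = 0.00676) and -0.42 (SE 0.13, adjusted p = 0.0161). Of 9 hepatocyte marker features 4 were lower and 1 higher in SLE-sham (list median -0.29), and 2 lower and 2 higher in MLE-sham (0.03), and their part in the AQP11 values was not tested. After ligation AQP11 was 10.3 ± 2.59 CPM in ENT-BDL, 8.46 ± 1.74 CPM in SLE-BDL, and 7.94 ± 1.2 CPM in MLE-BDL. The difference between MLE-BDL and ENT-BDL (log2 fold change -0.37, SE 0.14) did not pass (adjusted p = 0.0594). It passed with the identifier number as a block (-0.48, adjusted p = 0.0391), also without SLE-BDL replicate 9 (-0.51, adjusted p = 0.0307), and with DESeq2 (-0.38, adjusted p = 0.0475). It also passed with at least 10 counts in every library (-0.39, adjusted p = 0.0416), without the closely matching ENT libraries (-0.40, adjusted p = 0.0302), and in 12 of the 60 fits without 1 library. RLE, no filter, the groups compared only, and the replicate block did not make it pass. No call was made between SLE-BDL and ENT-BDL (-0.28, adjusted p = 0.119).

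**Figure D4:**
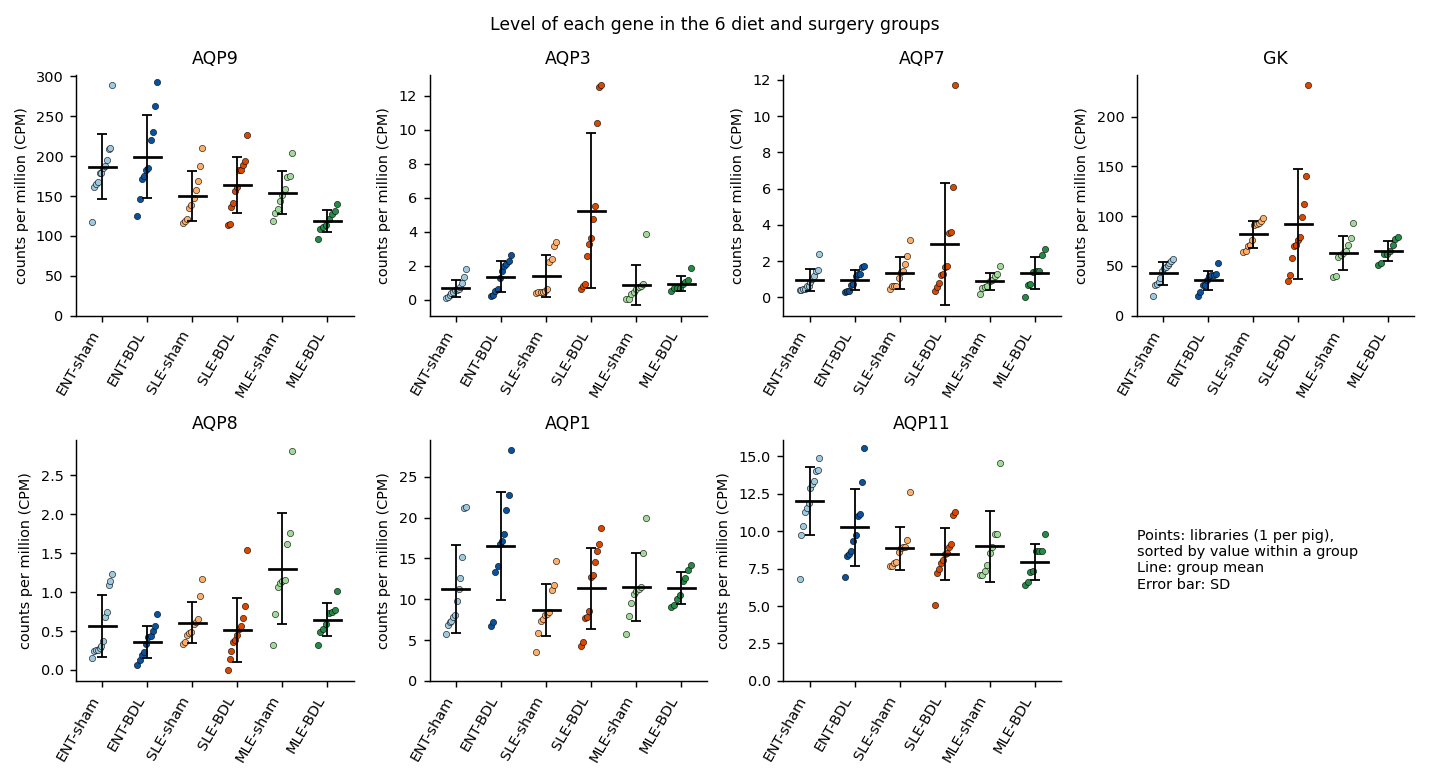
Level of each gene (CPM) in every library of the 6 groups, with the group mean and SD. GK of SLE-sham pigs (64.3 to 98.2 CPM) lies above that of ENT-sham pigs (19.5 to 56.9 CPM), and SLE-BDL replicate 9 is the highest library for AQP3, AQP7, and GK.

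None of the 19 tests of BDL against sham within a diet passed, with AQP3 tested in ENT only. In ENT 0 of 7 passed, against 8.89% of all genes called higher and 8.53% lower after BDL. In SLE 0 of 6 passed with AQP3 left out (2.97% of all genes higher, 1.57% lower), and in MLE 0 of 6 (7.85% higher, 6.58% lower). By edgeR 4 of these 19 tests had an unadjusted p under 0.05 (AQP1 in ENT, AQP7 in SLE, and AQP8 and AQP9 in MLE), and DESeq2 had 5 and called 1, AQP9 in MLE. For AQP7 in SLE the log2 fold change was 1.11 (SE 0.46, adjusted p = 0.159), with 7 of 11 SLE-BDL values above the SLE-sham median of 1.22 CPM.

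By diet, 5 of 21 sham tests passed, 2 in SLE-sham (13.9% of all genes higher, 13.6% lower) and 3 in MLE-sham (10.7% and 10.4%), and 0 of 7 passed between MLE-sham and SLE-sham, where 0.37% of all genes were called higher and 0.629% lower. Between PN-BDL and ENT-BDL 4 of 12 passed, 2 in SLE-BDL (10.4% of all genes higher, 9.17% lower) and 2 in MLE-BDL (8.53% and 8.27%). With the further threshold of a fold over 2, AQP8 remained among the sham tests and AQP7 and GK of SLE-BDL among the BDL tests. Of 18 interaction tests, which set the response to BDL in a diet against that in another, 0 passed, where 1.26% of all genes were called higher and 1.07% lower for SLE minus ENT, 0.0185% and 0.0432% for MLE minus ENT, and 0.0679% and 0.197% for MLE minus SLE. Unadjusted p was under 0.05 in 2 of them by edgeR and in 2 by DESeq2, which called none. Both by edgeR were AQP9, whose response in MLE minus that in ENT was -0.47 (95% interval -0.84 to -0.09, adjusted p = 0.426) and minus that in SLE -0.50 (95% interval -0.88 to -0.12, adjusted p = 0.34).

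**Figure D5:**
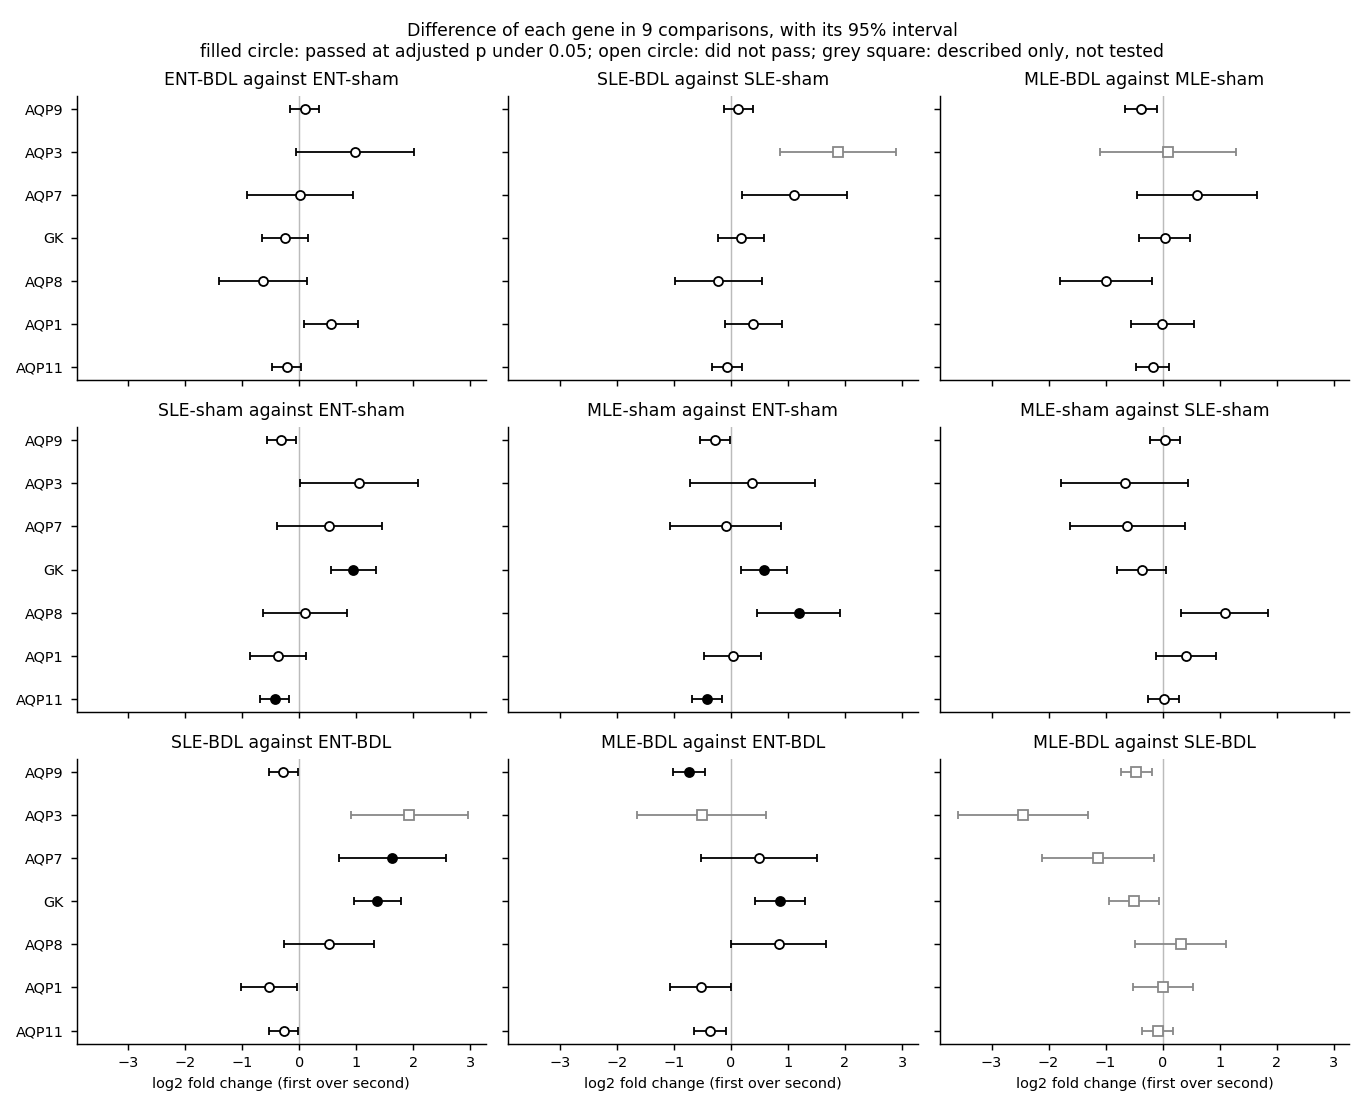
Log2 fold change of each gene in 9 comparisons, with its 95% interval. Filled circles passed at an adjusted p under 0.05 (for example GK in SLE-BDL against ENT-BDL at 1.37), open circles did not, and grey squares (AQP3 at -2.44 in MLE-BDL against SLE-BDL) are descriptions without a test.

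The other genes of glycerol handling were read from lists chosen by hand, whose medians can be set against a median log2 fold change of all genes between -0.00975 and 0.00788 in the comparisons made. Their counts stand beside the shares of all genes called, which were 13.9% higher and 13.6% lower in SLE-sham against ENT-sham, and 10.7% and 10.4% in MLE-sham against ENT-sham. After BDL these shares were 8.89% and 8.53% with ENT feeding, 2.97% and 1.57% with SLE, and 7.85% and 6.58% with MLE. Of the other aquaporins only MIP was tested, at a median of 7.5 counts per library. It was higher in MLE-sham than in ENT-sham (log2 fold change 1.27, SE 0.41, adjusted p = 0.0186) and lower in MLE-BDL than in MLE-sham (-1.69, SE 0.47, adjusted p = 0.00884), as an absolute level of 0.983 ± 0.588 CPM in MLE-sham. AQP2, AQP4, AQP5, AQP6, and AQP10 had at most 9 counts in a library.

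Genes of glycerol release from lipid, an inhibitor among them, changed with PN in part. Of 11 genes, 4 were higher and 1 lower in SLE-sham than in ENT-sham (list median 0.10), with LPL, the lipase of circulating lipoproteins, at 4.47 ± 4.15 against 0.203 ± 0.256 CPM (log2 fold change 4.37, SE 0.57, adjusted p = 2.21e-08) and MGLL, the monoglyceride lipase, at a log2 fold change of 0.86 (adjusted p = 5.61e-05). In MLE-sham 2 were higher and 1 lower (list median 0.13), with the largest changes in G0S2, an inhibitor of lipolysis (0.73, adjusted p = 0.00814), and LIPE, hormone-sensitive lipase (0.59, adjusted p = 0.00206). G0S2 was also among the higher genes in SLE-sham, and the lower gene in both PN sham groups was the lipase gene PNPLA2. MLE-sham minus SLE-sham was -4.36 for LPL (SE 0.65, adjusted p = 5.11e-05). Between BDL groups 6 of the 11 were higher and 0 lower in SLE-BDL than in ENT-BDL (list median 0.39, with 10.4% of all genes higher and 9.17% lower). The largest changes were in LIPG, endothelial lipase (1.63, adjusted p = 0.0112, at 29.5 ± 62.6 against 9.6 ± 4.9 CPM), and LPL (1.40, adjusted p = 0.0343). The SD of LIPG in SLE-BDL exceeded its mean, so few pigs may carry that difference, and it was not refitted with single pigs left out. In MLE-BDL 2 were higher and 1 lower than in ENT-BDL (0.19, with 8.53% and 8.27% of all genes). G0S2 was among the higher genes in both PN-BDL groups, and PNPLA2 was the lower one in MLE-BDL. After BDL LPL rose in ENT (3.03, adjusted p = 0.000114) and MLE (3.78, adjusted p = 5.25e-05). In ENT LIPA fell (-0.40, adjusted p = 0.0394), and in SLE the 1 change of the list was a fall of MGLL (-0.59, adjusted p = 0.0326).

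Downstream of GK, the triose and glycerol phosphate genes split by diet. Of 8 tested, 2 were higher and 3 lower in SLE-sham than in ENT-sham (list median -0.03), and 1 higher and 3 lower in MLE-sham (0.04). TKFC, the kinase of dihydroxyacetone and glyceraldehyde, went from 240 ± 53.4 CPM in ENT-sham to 73.1 ± 14.7 in SLE-sham (log2 fold change -1.71, adjusted p = 7.44e-13) and 90.5 ± 15.9 in MLE-sham (-1.40, adjusted p = 1.27e-09). PGP, the phosphatase that returns glycerol 3-phosphate to glycerol, rose in both (1.16, adjusted p = 6.34e-10, and 1.06, adjusted p = 2.64e-08). After BDL 1 of the 8 rose and 3 fell in ENT, and 3 rose and 2 fell in MLE. Hepatocyte markers had 4 of 9 features lower and 1 higher in ENT and 7 lower in MLE, and their part in these falls was not tested. The fallers in ENT included both cytosolic glycerol phosphate dehydrogenase genes, GPD1 (-0.64, adjusted p = 0.00402) and GPD1L (-0.59, adjusted p = 0.00369). The same 2 genes fell in MLE, GPD1L by -0.55 (adjusted p = 0.0202), and the mitochondrial GPD2 rose (0.72, adjusted p = 0.000181). In SLE none of the 8 passed.

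Genes of glucose output were in part lower in PN than in ENT sham livers, and all 6 were lower after BDL in MLE. Glycerol enters this route at the triose phosphates, so FBP1, G6PC, and SLC37A4 lie on its way to glucose, while PC, PCK1, and PCK2 serve the supply from pyruvate. Of 6 tested, 4 were lower in SLE-sham than in ENT-sham (list median -0.66), and 3 lower and 1 higher in MLE-sham (-0.32). Hepatocyte markers had 4 of 9 features lower and 1 higher in SLE-sham (list median -0.29), and 2 lower and 2 higher in MLE-sham (0.03). G6PC, the last step of glucose release, was 838 ± 274 CPM in ENT-sham, 120 ± 46.1 in SLE-sham (log2 fold change -2.80, adjusted p = 8.62e-11), and 240 ± 114 in MLE-sham (-1.80, adjusted p = 5.29e-06). In SLE-sham PCK1, phosphoenolpyruvate carboxykinase, was lower (-1.33, adjusted p = 0.00183), and in MLE-sham the glucose 6-phosphate transporter SLC37A4 (-0.82, adjusted p = 7.92e-07). After BDL all 6 were lower in MLE (list median -0.67), among them G6PC (-1.43, adjusted p = 0.000987) and PCK1 (-1.07, adjusted p = 0.0445), 3 were lower in ENT, led by FBP1, fructose bisphosphatase (-0.45, adjusted p = 0.0111), and 1 in SLE, again FBP1 (-0.76, adjusted p = 0.000402). Hepatocyte markers fell in the same MLE comparison, 7 of 9 features (list median -0.71). In ENT 4 of 9 marker features were lower and 1, TF, was higher (list median -0.24), and in SLE 0 of 9 changed (list median -0.03). Their part in the enzyme changes was not tested.

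Acylation genes, which build lipid on glycerol 3-phosphate, changed in part, with more falls than rises in the comparisons given here. Of 12 tested, 5 fell and 1 rose after BDL in ENT (list median -0.33), 3 fell in MLE (-0.25), and 0 changed in SLE (-0.01). Hepatocyte markers had 4 of 9 features lower and 1 higher in ENT, 7 lower in MLE, and 0 changed in SLE, and their part here was not tested. DGAT2, which makes triglyceride, fell in ENT livers (-0.67, adjusted p = 0.0149) and also in MLE (-1.12, adjusted p = 0.000483), and LPIN1, a phosphatidate phosphatase, rose in ENT (0.85, adjusted p = 0.00395). Between sham groups 2 were higher and 5 lower in SLE than in ENT (-0.25), with the largest changes in GPAT2 (-1.47, adjusted p = 0.00412, at 0.492 ± 0.44 against 1.36 ± 0.616 CPM) and GPAT3 (1.09, adjusted p = 3.78e-06). In MLE 1 was higher and 4 lower (-0.25), with AGPAT1 at 0.77 (adjusted p = 1.50e-06) and DGAT2 at -0.74 (adjusted p = 0.00691).

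Of 13 regulators reported for aquaglyceroporins, such as nuclear receptors and insulin signalling genes, 1 rose and 5 fell after BDL in ENT (list median -0.18), 2 fell in MLE (-0.12), and 0 changed in SLE (0.05). PPARG, the fat cell nuclear receptor, rose in ENT-BDL (1.46, adjusted p = 0.000737) and was higher in SLE-sham than in ENT-sham (1.19, adjusted p = 0.00391), at levels under 1 CPM (0.863 ± 0.457 in ENT-BDL). ESR1, the estrogen receptor, fell after BDL in ENT livers (-0.88, adjusted p = 0.00161) and also in MLE (-0.91, adjusted p = 0.00601). Against ENT-sham 2 were higher and 6 lower in SLE-sham (-0.19), and 1 higher and 5 lower in MLE-sham (-0.27), where IRS2, an adaptor of the insulin receptor, had the largest change (-0.81, adjusted p = 5.19e-05).

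Bile secretion genes rose after BDL where they changed. Of 10 tested, 4 rose in ENT (list median 0.18), 1 in SLE (0.15), and 3 in MLE (0.11), and none fell. Cholangiocyte markers, with CFTR on both lists, rose in the same comparisons, 5 of 8 in ENT, 1 in SLE, and 6 in MLE, and their part was not tested. ABCB4, the phospholipid exporter, rose in ENT (1.71, adjusted p = 7.47e-06) and MLE (1.11, adjusted p = 0.00865), SCTR, the secretin receptor of bile duct cells, rose in ENT (1.40, adjusted p = 0.00129) and MLE (1.53, adjusted p = 0.00265), and ANO1, a chloride channel, in SLE (0.79, adjusted p = 0.00579). Between sham groups ABCB4 was higher in SLE than in ENT (1.32, adjusted p = 0.000132) and lower in MLE than in SLE (-1.34, adjusted p = 0.0111). SLC10A1, the bile acid uptake carrier, was lower than in ENT-sham in SLE-sham (-0.73, adjusted p = 0.000316) and MLE-sham (-0.85, adjusted p = 8.27e-05).

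The genes whose log2 CPM followed each member most closely over the 60 libraries, which share groups, depth, and identifier numbers, were different for each. For GK they were EIF4G1 (r = 0.841), PFKL (0.833), and ALAS1 (0.824), for AQP11 HAGH (0.787), NAPRT (0.772), and GRHPR (0.740), and for AQP9 OS9 (0.771), GJB1 (0.762), and TOR1AIP2 (0.757). AQP1 was closest to DYRK3 (0.712), N4BP3 (0.684), and CORO2B (0.678), and AQP3 to JDP2 (0.655), CD9 (0.648), and HACD1 (0.646). For the rare AQP7 and AQP8 the closest were CEACAM1 (0.598), MYO5B (0.585), and SERPINB7 (0.538), and ZBTB12 (0.588), CEP85 (0.577), and TIMM29 (0.571). With group means subtracted, HAGH kept 0.688 with AQP11, CORO2B 0.733 with AQP1, and TIMM29 0.299 with AQP8.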

How the data were processed

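Liver libraries (60) in 6 groups were analysed. Per the labels and the study's methods, poly-A libraries (NEBNext Ultra) were sequenced as paired reads, trimmed with fastp, aligned to Sscrofa11.1 with HISAT2 2.0.5, and counted per gene with featureCounts 1.5.0-p3. StringTie 1.3.3 predicted unannotated genes. The authors deposited whole-number read counts without normalization, with the gene length in bases. How reads that fit several genes, or strands, were counted is not given in the sources used here.

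The 24 features without a gene name (0.0084% to 0.041% of a library) were left out. Genes were filtered by filterByExpr, scaled by TMM, and tested with the quasi-likelihood test of edgeR 4.0.16 (robust=TRUE, two-sided, R 4.3.3) on all 60 libraries with 6 group means. The Benjamini-Hochberg adjustment covered 16210 genes, and a gene passed at an adjusted p of 0.05. SE is the log2 fold change divided by the square root of F. P values measure the spread between pigs. Log2 CPM used a prior count of 2. Correlations were tested by permuting pigs within groups (numpy 2.4.6, scipy 1.17.1). Intervals are at 95%, and the floor of 3 counts covers counting error only.

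Named were the 7 genes, and from each list at most 2 genes with the largest change among those that passed. The members and lists were chosen with earlier results of these data known. Alternatives were RLE, DESeq2 1.42.0, other filters, fits on the groups compared, a replicate or identifier block, and each library left out. The identifier block without SLE-BDL replicate 9 was added after seeing the data. Replicate numbers are in the labels but did not pair pigs: the 137 same-numbered pairs had residual correlations of -0.231 to 0.381 (median -0.0173). AQP12A and AQP12B were not analysed here.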

Additional observations from a re-analysis of the deposited data

Results flagged for a closer look

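In the 4 groups of 8 to 10 pigs, 3 values stood apart from the rest of their group by Dixon's test, of 28 sets of values tested. Chance gives about 1 in 20. AQP3 in MLE-sham replicate 1 was 3.89 CPM, against 0.962 CPM in the next and 0.0678 CPM in the lowest pig of that group, and without it the mean of MLE-sham went from 0.888 ± 1.17 to 0.513 ± 0.339 CPM. AQP11 in SLE-sham replicate 3 was 12.6 CPM, with the next at 9.42 CPM. AQP11 in MLE-sham replicate 4 was 14.5 CPM, with the next at 9.82 CPM. The AQP11 calls against ENT-sham held when either library was left out.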

How the results depend on the processing

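Of 644 values of the 7 genes under other settings, 607 stayed on their side of the threshold or, for values without a test, within the spread between pigs, 22 passed newly (1 is AQP3 in SLE-sham against ENT-sham with the identifier block, given as a description), 10 no longer passed, 5 AQP3 values moved, and 0 called values turned sign. Of 61 differences that did not pass, 11 changed sign in a planned setting. Tests of BDL against sham passed 0 times of 19, but 1 time with DESeq2, with the identifier block, or with both matching ENT libraries left out, 1 time of 12 with at least 10 counts in every library, 2 times of 17 on the groups compared only, and 0 to 2 times with a library left out (2 without ENT-sham replicate 2). PN-BDL against ENT-BDL passed 4 times of 12, 2 times with a fold over 2, and 3 to 6 times with a library left out (3 without SLE-BDL replicate 9). Diets within sham passed 5 times of 21, 1 time with a fold over 2, and 4 to 6 times with a library left out. The interaction tests passed 0 times in every setting and with any library left out. With the replicate block, BDL against sham passed 2 times of 17, diets within sham 2 times, and PN-BDL against ENT-BDL 3 times of 10, and AQP7 in SLE-BDL against ENT-BDL was 1.16 (adjusted p = 0.189); the numbers only name pigs, and the cause of these changes was not tested. The 5 moved AQP3 values were 0.58 for SLE-BDL against SLE-sham, -1.0 for MLE-BDL against SLE-BDL, and -0.42 for the response to BDL in SLE minus ENT (0.89 without a block), all with the identifier block without SLE-BDL replicate 9, and for the response in MLE minus SLE (-1.78 without a block) -0.27 with the identifier block and -0.11 without that pig as well. With at least 10 counts required in every library AQP3, AQP7, and AQP8 were not tested. Few reads limit these 3 genes.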
